A study of Mus musculus with 8 samples.

Results

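The genes described here are 8 transcripts that write, erase or read ubiquitin on the route to NF-κB. They are Tnfaip3 (the protein A20), its binding partners Tnip1 (ABIN-1) and Tnip2 (ABIN-2), the deubiquitinases Cyld and Otulin, and the linear ubiquitin ligase subunits Rnf31 (HOIP), Rbck1 (HOIL-1) and Sharpin. They were chosen by symbol, each matched 1 Ensembl identifier, and they make up 8 of the 55487 genes in the count table. All 8 passed the filter of at least 10 reads summed over the 8 libraries, as did 20610 genes in all. Levels are given as CPM, counts of a gene per 1000000 reads of its library after scaling by the TMM method.

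The linear ubiquitin chain assembly complex (LUBAC) joins ubiquitin head to tail on signaling complexes below receptors such as that of TNF. Rnf31 carries its catalytic activity, and Rbck1 and Sharpin hold the complex together. Such chains recruit the IKK complex, which phosphorylates IκBα so that the SCF ligase marks it for degradation and NF-κB enters the nucleus. Otulin cleaves linear chains, Cyld removes both linear and lysine-linked chains, and A20 and the ABIN proteins bind the chains and restrain the signal. Nfkbia, which encodes IκBα, and Tnfaip3 are classic NF-κB target genes, so that both act in negative feedback, and A20 is known to restrain NF-κB in adult blood stem cells.

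The study asked what loss of IκBα does to long-term hematopoietic stem cells (LT-HSCs) of the mouse fetal liver at E14.5, which were sorted as lineage-negative, SCA1+, cKIT+, CD48- and CD150+ cells, 500 per library. The mice carried the Nfkbia tm1Bal allele, a germline deletion present in every cell of the embryo, as 2 copies in IκBα KO (n = 2), 1 copy in HET (n = 3) and none in WT (n = 3). Each library came from a mouse of its own, and the labels name no treatment. WT1, WT2 and HET1 were male and labelled total RNA, whereas WT3, HET2, HET3, KO1 and KO2 were female and labelled polyA RNA, so sex and RNA label cannot be told apart and both KO libraries were female.

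Between 17895973 and 21720972 reads per library were counted on genes, and 3 reads, the least taken as detected, corresponded to 0.125 to 0.178 CPM. Nfkbia was at 14.4 to 67.7 CPM in the 6 WT and HET libraries. It had 1 read in KO1 and 0 in KO2, at least 229-fold lower than the WT/HET mean when each KO library is set at its floor of 3 reads. The LT-HSC label did not hold equally in all libraries. For 8 of 9 LT-HSC markers WT3 and HET3 were the lowest libraries, and their summed level over the 9 was 271 and 228 CPM. It was 1533 in WT1, 1625 in WT2, 573 in HET1, 516 in HET2, 1508 in KO1 and 1038 in KO2. Ly6a, which encodes the sorted antigen SCA1, had no read in HET3, which allows a level of up to 0.178 CPM, and 14.1 to 77.2 CPM in the libraries other than HET3 and WT3. For all 8 hepatocyte transcripts WT3 and HET3 were the highest libraries, with summed levels of 1310 and 645 CPM, against 95.1 in HET1, 163 in HET2, 237 in KO2 and 7.68 to 9.31 in WT1, WT2 and KO1. Erythroid transcripts were highest in HET1, at 8547 CPM over 6 genes, and ranged from 530 to 3299 CPM in the others. In bulk RNA, fewer cells of a type and less RNA per cell cannot be told apart. The KO differences of the 8 genes and the list medians are therefore given with and without both. With sex in the model, the values without both set KO against HET2 alone, the only female WT or HET library left.

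Before the values, the sequence ahead of the start sites shows how the 8 genes differ in one feature of NF-κB target promoters. The RefSeq promoter table (GRCm38.p6) held a window of 250 bases before to 50 bases after the start for 7 of the 8 genes and for Nfkbia. These windows were searched on both strands for the κB consensus, the 10-base motif that NF-κB dimers bind. It was present at Nfkbia and at 3 of the 7, Tnfaip3, Tnip1 and Cyld. No match lay in the windows of Tnip2, Otulin, Rnf31 or either start of Rbck1, or at a second start of Tnfaip3. Of all 32851 windows in the table, 8.46% held a match. The stretches that carry the matches are shown to make the matches readable, with Otulin as a stretch without one. They run 5′ to 3′ on the strand of the gene and end at the base before the start, and capitals mark the κB matches.
Nfkbia, chr12:55492648-55492747, minus strand: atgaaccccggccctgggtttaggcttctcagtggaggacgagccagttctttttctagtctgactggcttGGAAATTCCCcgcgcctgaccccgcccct
Tnfaip3, chr10:19015411-19015540, minus strand: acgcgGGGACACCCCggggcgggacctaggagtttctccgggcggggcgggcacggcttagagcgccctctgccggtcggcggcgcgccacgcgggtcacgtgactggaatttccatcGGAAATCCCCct
Tnip1, chr11:54962941-54963040, minus strand: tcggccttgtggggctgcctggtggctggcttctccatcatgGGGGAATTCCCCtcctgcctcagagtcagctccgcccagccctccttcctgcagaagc
Cyld, chr8:88696868-88697027, plus strand: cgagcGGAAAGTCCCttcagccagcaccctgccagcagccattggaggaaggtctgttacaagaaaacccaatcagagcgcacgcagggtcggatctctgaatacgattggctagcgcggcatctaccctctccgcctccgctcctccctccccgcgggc
Otulin, chr15:27630694-27630793, minus strand: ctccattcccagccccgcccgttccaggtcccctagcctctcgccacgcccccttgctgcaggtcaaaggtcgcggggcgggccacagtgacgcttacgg

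Tnfaip3 had 2 κB matches, at -125 to -116 and -12 to -3 from the start. In Tnip1, 3 matches overlapped within the palindrome between -58 and -47, and Cyld had 1 match at -155 to -146. In Nfkbia the match lay at -29 to -20. The ETS core CCGGAAG occurred in 8.86% of all windows, and in these genes once at Rnf31 and 3 times at the second start of Rbck1. The GC box GGGCGG occurred in 35.7% of all windows and at the first start of every one of the 7 genes, with 1 match at Tnip1 and 5 at Tnip2. These first-start windows were also GC-rich, from 56.7% at Tnfaip3 to 71% at Otulin, against a median of 52.7% over all windows. A match says that these letters are in the window, not that a factor binds there.

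Per length of transcript the 8 genes spanned a wide range, from the abundant Otulin to the scarce Tnfaip3. The mean over the 8 libraries, as CPM per kilobase of exon, was 72.7 ± 13.6 for Otulin, 40.7 ± 6.11 for Rbck1 and 18.2 ± 1.89 for Sharpin (SD, n = 8). The ranges of Otulin, Rbck1 and Sharpin did not overlap. By mean CPM Rbck1 was above Otulin (187 against 123), so their order rests on the annotated exon lengths of 4.6 and 1.69 kb. Tnip1 and Tnip2 followed at 9.16 ± 5.10 and 8.95 ± 3.25, and did not differ beyond their spread, since Tnip1 was the higher of both in only 3 of 8 libraries. Cyld stood at 3.34 ± 0.691 and Rnf31 at 1.93 ± 0.497. Tnfaip3 was lowest at 0.659 ± 0.47, below Rnf31 in all 8 libraries. Within LUBAC the catalytic subunit was thus the least abundant transcript. The level of Rbck1 per kilobase was 12.2 to 33.5 times, and that of Sharpin 6.14 to 13.8 times, that of Rnf31 in the same library.

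**Figure D1:**
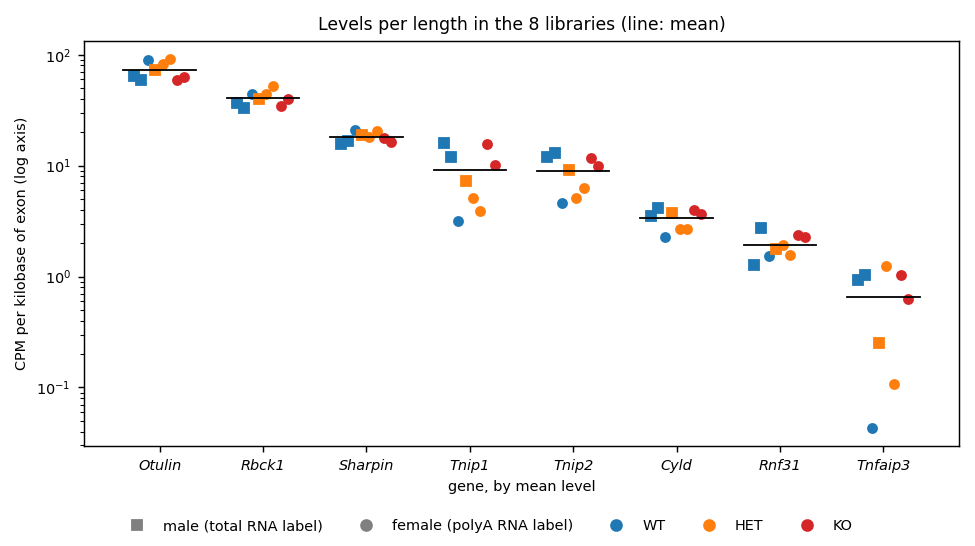
CPM per kilobase of exon (log axis) of each gene in each of the 8 libraries, ordered by mean (black line); squares are male and circles female libraries, and color gives the genotype. Otulin, Rbck1 and Sharpin do not overlap each other at the top, although Sharpin overlaps Tnip1 below it. Tnfaip3 spreads from 0.0432 to 1.24.

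Tnfaip3, the A20 gene, lies on chromosome 10 (19000910 to 19015657, minus strand) and was the most variable of the 8. It was at 6.79 CPM in WT1, 7.52 in WT2, 0.31 in WT3, 1.81 in HET1, 8.93 in HET2, 0.77 in HET3, 7.44 in KO1 and 4.52 in KO2. These levels rest on 6 reads in WT3 and 13 in HET3, against 92 and 152 in the KO libraries. The highest and the lowest library were thus both WT or HET, 28.6-fold apart, and both KO libraries lay between them. All males were WT or HET and both KO libraries female, so a model of genotype and sex fits the males apart. The KO value of every gene is then that of KO against WT3, HET2 and HET3, and the males add only to the spread. For Tnfaip3 the log2 fold change of KO over WT/HET, from edgeR with sex in the model, was 0.84 ± 1.2 (SE), with an adjusted p of 0.682. With WT3 and HET3 left out it was -0.61 ± 0.85, with HET2 as the only female reference. Leaving out HET2 alone, the highest library, set KO against WT3 and HET3 and gave 3.46 ± 0.86 with an adjusted p of 0.0671. Leaving out WT3 alone gave 0.27 ± 1.08. The size and sign of the Tnfaip3 difference thus depended on which libraries were kept.

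Tnip1 encodes ABIN-1, which brings A20 to ubiquitin chains, and lies on chromosome 11 (54910785 to 54962917, minus strand). It had the largest fitted change. Its level was 56.5 CPM in WT1, 42.0 in WT2, 11.2 in WT3, 25.7 in HET1, 18.0 in HET2, 13.9 in HET3, 55.9 in KO1 and 36.0 in KO2. Both KO libraries were above the 3 female WT and HET libraries (mean 45.9 ± 14.1 against 14.4 ± 3.43, SD), but within the range of the males (41.4 ± 15.4). The edgeR log2 fold change of KO over WT/HET was 1.67 ± 0.36, with an unadjusted p of 0.00146 and an adjusted p of 0.148. DESeq2 with apeglm gave 1.44 ± 0.43 with an adjusted p of 0.00478, which passed the threshold. With WT3 and HET3 left out the edgeR value was 1.32 ± 0.53, with an adjusted p of 0.683, and with no sex term it was 0.72 ± 0.57. An exact two-sided permutation test of log2 CPM over 2 KO and 6 WT/HET libraries, without sex, gave p = 0.357.

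Tnip2 encodes ABIN-2, a further A20 partner that also binds the kinase TPL2, and lies on chromosome 5 (34496087 to 34513991, minus strand). It was at 32.3 CPM in WT1, 34.6 in WT2, 12.3 in WT3, 24.5 in HET1, 13.7 in HET2, 17.0 in HET3, 31.3 in KO1 and 26.6 in KO2. The order resembled that of Tnip1, with WT1, WT2, KO1 and KO2 as the top 4 libraries of both genes. The log2 fold change was 1.01 ± 0.24, with an unadjusted p of 0.00265 and an adjusted p of 0.148. It was 1.05 ± 0.36 without WT3 and HET3, and 0.37 ± 0.42 with no sex term. DESeq2 with apeglm gave 0.87 ± 0.28 and an adjusted p of 0.0117, below the fold threshold of a log2 change over 1.

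Cyld encodes a deubiquitinase that strips linear and lysine-linked chains, and lies on chromosome 8 (88697028 to 88751945, plus strand). It varied over a narrower range, with 44.3 CPM in WT1, 52.1 in WT2, 28.7 in WT3, 47.0 in HET1, 34.0 in HET2, 33.6 in HET3, 50.3 in KO1 and 46.3 in KO2. All males and both KO libraries were at 44.3 or above, and the 3 female WT and HET libraries were at 34.0 or below. The log2 fold change of KO over WT/HET was 0.59 ± 0.17, with an unadjusted p of 0.00811 and an adjusted p of 0.151. Without WT3 and HET3 it was 0.48 ± 0.28, with an unadjusted p of 0.13.

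**Figure D2:**
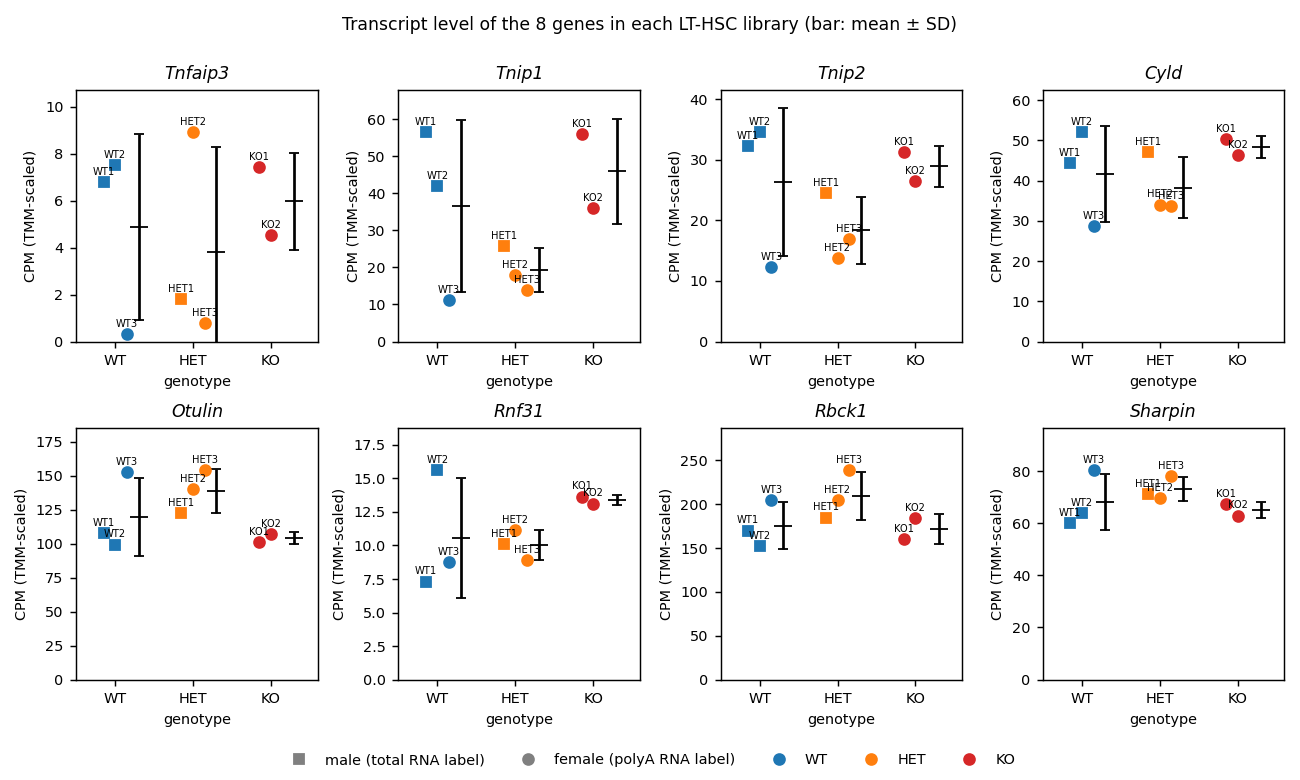
CPM (TMM-scaled, linear axes from 0) of the 8 genes by genotype; each point is 1 library, squares male and circles female, and the black bars give the mean ± SD of the group, cut at 0. For Tnip1, Tnip2 and Cyld the KO libraries sit with the males and above the female WT and HET libraries; for Otulin they sit with the males and below them.

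Otulin, whose product cleaves linear chains alone, ran opposite to Tnip1. It lies on chromosome 15 (27542635 to 27630693, minus strand) within a stretch that also holds Ank on the other strand, with no exon base shared. It was at 108 CPM in WT1, 99.3 in WT2, 153 in WT3, 122 in HET1, 140 in HET2, 154 in HET3, 101 in KO1 and 107 in KO2. WT3 and HET3, at the bottom for Tnip1, were thus at the top for Otulin. The log2 fold change of KO over WT/HET was -0.52 ± 0.15, with an unadjusted p of 0.00803 and an adjusted p of 0.15. It was -0.46 ± 0.25 without WT3 and HET3, where the unadjusted p was 0.112. DESeq2 with apeglm gave -0.51 ± 0.16 with an adjusted p of 0.0151, again short of the fold threshold.

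The LUBAC subunits had smaller fitted differences than Tnip1. Rnf31, the catalytic one, on chromosome 14 (55591708 to 55603693, plus strand), was at 7.30 CPM in WT1, 15.6 in WT2, 8.75 in WT3, 10.1 in HET1, 11.2 in HET2, 8.90 in HET3, 13.7 in KO1 and 13.1 in KO2. Its extremes were the 2 male WT libraries, and 2.15% of its exon bases are shared with Irf9 on the same strand. The fitted log2 fold change was 0.48 ± 0.36, with an adjusted p of 0.411, and 0.23 ± 0.54 without WT3 and HET3.

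Rbck1, the HOIL-1 subunit, on chromosome 2 (152316334 to 152332653, minus strand), followed the order of Otulin. It was at 170 CPM in WT1, 153 in WT2, 205 in WT3, 185 in HET1, 204 in HET2, 239 in HET3, 160 in KO1 and 184 in KO2. The log2 fold change was -0.33 ± 0.16, with an adjusted p of 0.227, and -0.28 ± 0.25 without WT3 and HET3.

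Sharpin, the accessory subunit, on chromosome 15 (76347040 to 76351111, minus strand), was the steadiest of the 8 and spanned 1.34-fold. It was at 60.2 CPM in WT1, 63.9 in WT2, 80.5 in WT3, 71.2 in HET1, 69.7 in HET2, 78.3 in HET3, 67.3 in KO1 and 63.0 in KO2. Its log2 fold change was -0.23 ± 0.16, with an adjusted p of 0.376. It was -0.13 ± 0.26 without WT3 and HET3, and scaling by library size alone turned it to 0.063 ± 0.15.

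For the KO comparison as a whole, 0 of the 8 genes had both KO libraries outside the range of the 6 WT and HET libraries. Over all 20610 genes tested, both KO libraries were above that range for 3.05% and below it for 1.79%. Against the 3 female WT and HET libraries alone, both KO libraries were above for 4 of the 8, Tnip1, Tnip2, Cyld and Rnf31, and below for 3, Otulin, Rbck1 and Sharpin. The corresponding shares over all genes were 27.1% and 21.4%. With the threshold set at an adjusted p under 0.05 and a log2 fold change beyond 1 in either direction, edgeR called 0 of the 8 and 0% of all genes. At an unadjusted p under 0.05, 5196 genes passed, 15.7% of all genes being higher in KO, and 3 of the 8 were higher and 1 lower. DESeq2 with apeglm called 1476 genes, of which those higher in KO were 6.56% of all genes, and Tnip1 was the only one of the 8. For Tnfaip3 DESeq2 returned no p-value in this comparison, so it could not be called.

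Most of these values depended on the sex term. With no sex term 0 of the 8 and 2.00% of all genes passed an unadjusted p under 0.05. The smallest p that the exact permutation test allows, 0.0714 for 2 libraries against 6, was reached by Nfkbia and by none of the 8, whose p ranged from 0.214 for Rnf31 to 0.643 for Tnfaip3. Leaving out HET2 kept only WT3 and HET3, the libraries lowest in LT-HSC markers, as female references. Tnip1 then passed the edgeR threshold, at a log2 fold change of 1.88 ± 0.40 and an adjusted p of 0.04999. The genes called rose from 0 to 730. Leaving out WT3 and HET3 together left 0 genes called and 1048 at an unadjusted p under 0.05.

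**Figure D3:**
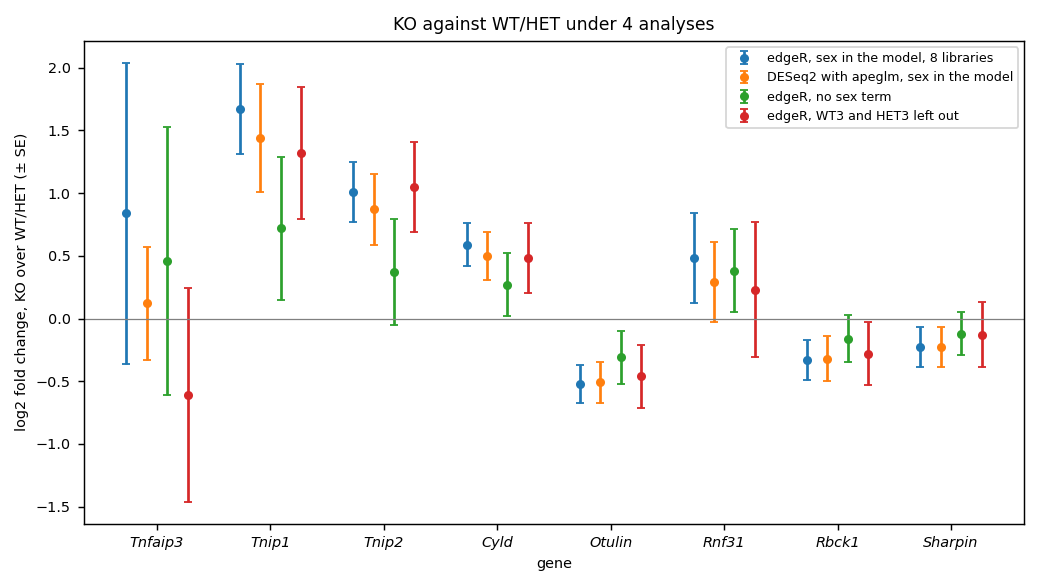
log2 fold change of KO over WT/HET (± SE) of the 8 genes under 4 analyses, given by color. Values for Tnip1 run from 0.72 with no sex term to 1.67, and Tnfaip3 changes sign when WT3 and HET3 are left out.

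The deposited table of log2 values that the authors corrected for sex shows the same step on another scale. In it, Tnip1 was at 10.87 in KO1 and 10.36 in KO2, against 9.11 to 9.98 in the WT and HET libraries. Tnip2 was at 10.10 and 9.93, against 9.19 to 9.56, and Cyld at 10.51 and 10.41, against 9.92 to 10.13. All 3 were thus above the 6 other libraries on the corrected scale, while none was on the CPM scale. Rbck1 was at 11.58 and 11.75, against 11.84 to 12.15, and Otulin and Sharpin were also below the range of the others. In this table both KO libraries were above the 6 others for 19.3% of all genes and below them for 16.5%. Of the 3 female WT and HET libraries, 2 are WT3 and HET3, and the part of these in the corrected values was not tested.

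**Figure D4:**
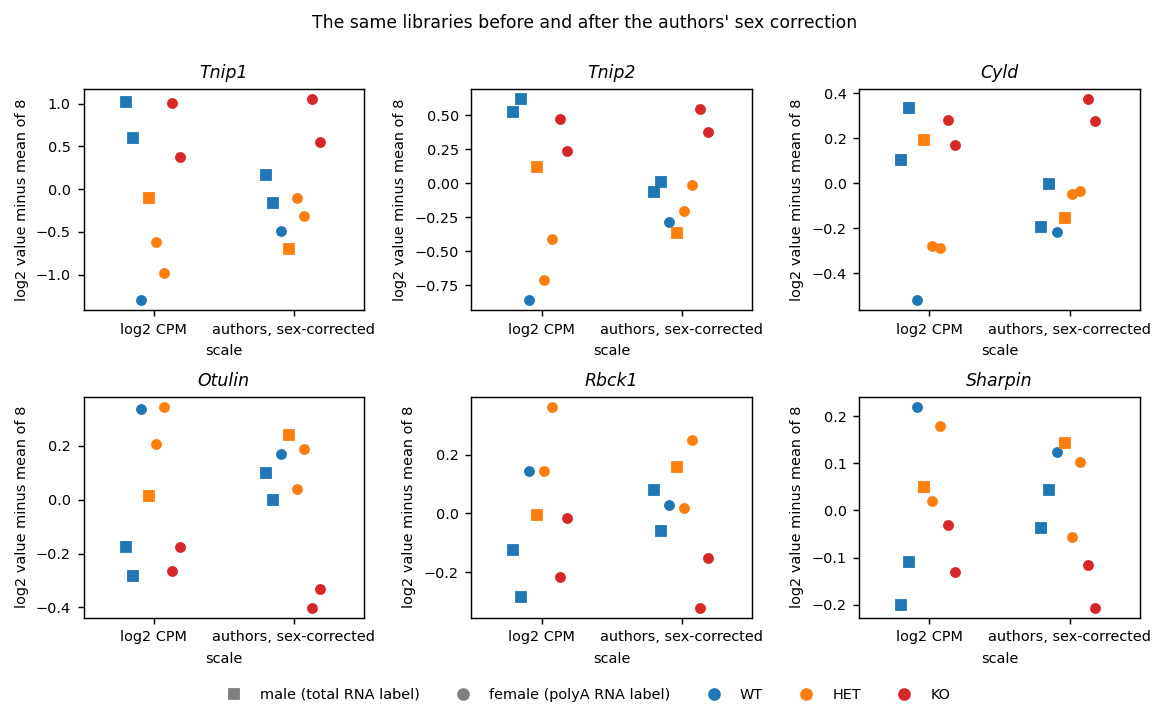
log2 CPM and the authors' sex-corrected log2 value of 6 genes, each minus its mean over the 8 libraries; squares are male and circles female libraries, and color gives the genotype. The KO libraries lie among the males on the left of each panel and outside all 6 WT and HET libraries on the right.

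Among the WT and HET libraries the largest differences between males and females, beside the imprecise Tnfaip3 (1.37 ± 2.32), were in Tnip1, Tnip2, Cyld and Otulin. Tnip1 was 1.41 ± 0.40 higher in males on the log2 scale, Tnip2 1.06 ± 0.28 and Cyld 0.61 ± 0.18, with unadjusted p of 0.0115, 0.00757 and 0.0147. Otulin differed by -0.41 ± 0.15 (unadjusted p = 0.0293). The adjusted p of these 4 ranged from 0.176 to 0.191, so edgeR called 0 of the 8. Over all genes it called 0.0146% (3 genes, and 0 with the replicate number as a block). The DESeq2 Wald test called Tnip1 (1.39 ± 0.41, adjusted p 0.0119) and Tnip2 (1.03 ± 0.30, adjusted p 0.0113), among 1839 genes. At an unadjusted p under 0.05, 10.7% of all genes were higher in males. Tnip1, Tnip2, Cyld, Otulin and Rbck1 did not overlap between the 3 males and the 3 females. Each then reached 0.1, the smallest p that an exact permutation test of 3 against 3 allows. The share of all genes that did not overlap between males and females was not counted. With WT3 and HET3 left out, HET2 is the one female left, and the male values were 0.51 ± 0.29 for Tnip1, 0.84 ± 0.28 for Tnip2, 0.47 ± 0.25 for Cyld and -0.19 ± 0.19 for Otulin.

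Loss of 1 Nfkbia copy gave no call among the 8. Nfkbia itself had a mean of 22.2 ± 7.34 CPM in HET and 45.5 ± 22.1 in WT. All 8 genes overlapped between HET and WT, a share that was not counted over all genes. Their log2 fold changes ranged from -0.22 ± 0.40 for Tnip1 to 0.81 ± 2.34 for Tnfaip3, with adjusted p of 0.947 or more. For the genotype comparison edgeR called 0% of all genes, 747 having an unadjusted p under 0.05, and DESeq2 called 64. With WT3 and HET3 left out, the comparison is that of HET1 with WT1 and WT2, and Tnfaip3 then stood at -1.98 ± 0.47 with an adjusted p of 0.0149, among 1964 genes called. Tnip1 had -0.94 ± 0.25 with an adjusted p of 0.0269 there, short of the fold threshold. That fit has 1 residual degree of freedom, from the difference between WT1 and WT2.

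Several of the 8 genes were highest or lowest in the libraries at the ends of the cell type marker sums. WT1, WT2, KO1 and KO2 had summed LT-HSC markers of 1038 CPM or more and the highest Tnip1 and Tnip2. WT3 and HET3, with sums of 271 and 228 CPM, held the lowest Tnip1, the lowest Tnfaip3 and the highest Otulin and Rbck1. Rnf31 did not follow this order, with its lowest level in WT1 and its highest in WT2, and Tnfaip3 was highest in HET2, where the sum was 516 CPM. In the model with sex, all 9 LT-HSC markers had a positive KO coefficient at an unadjusted p under 0.05, with a median of 2.76 on the log2 scale, and none was called by edgeR. Their median was 1.55 without WT3 and HET3, where 2 had an unadjusted p under 0.05, and 0.60 with no sex term. The 8 hepatocyte transcripts had a median of -2.69, which was -0.45 without WT3 and HET3 and -1.77 with no sex term. The part of these markers in the results for the 8 genes was not tested.

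**Figure D5:**
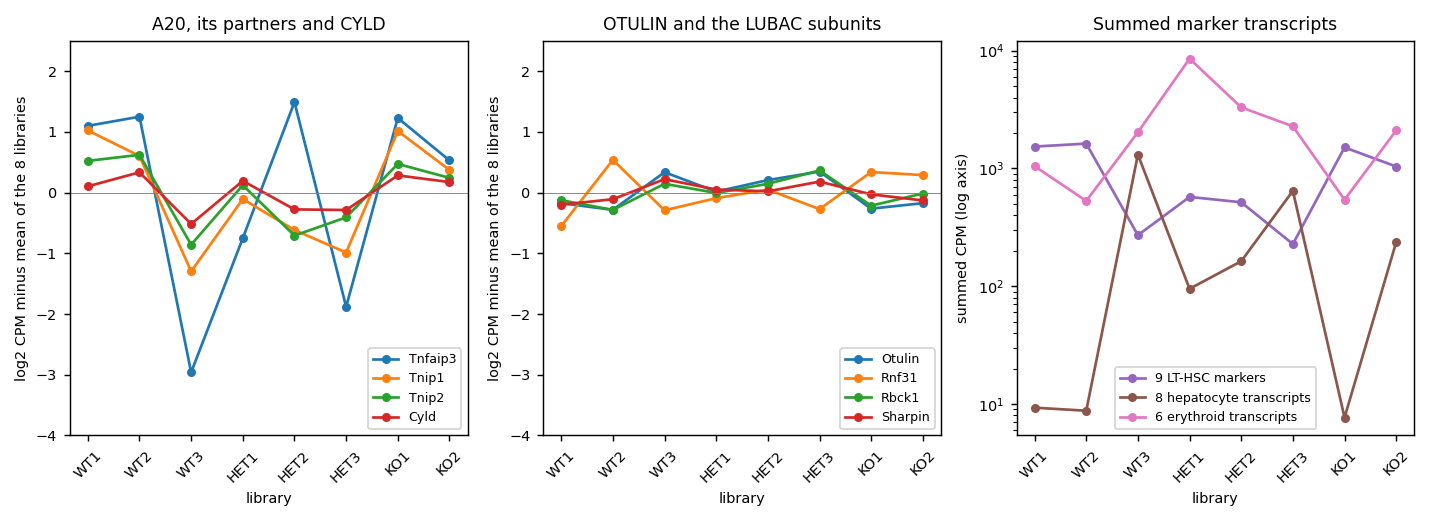
log2 CPM of each gene minus its mean over the 8 libraries (left and middle) and summed CPM of LT-HSC, hepatocyte and erythroid transcripts (right, log axis), by library. Tnfaip3, Tnip1, Tnip2 and Cyld are lowest in WT3 and below their mean in HET3, where the LT-HSC sum is lowest and the hepatocyte sum highest; Otulin, Rbck1 and Sharpin are highest in these libraries.

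Among themselves the 8 genes fell into patterns that the mean absolute difference of centred log2 CPM describes, over the same 8 libraries. Otulin and Rbck1 were closest at 0.07, followed by Sharpin, which was 0.12 from each. Cyld was 0.23 from Rnf31 and 0.24 from Tnip2, and Tnip1 was 0.32 from Tnip2. Tnfaip3 was 0.80 or more from every other gene of the 8. The SD of log2 CPM over the 6 WT and HET libraries was 1.86 for Tnfaip3, a spread exceeded by 5.02% of the 10099 genes with a mean of at least 5 CPM, and 0.91 for Tnip1, exceeded by 15.8%. For Rbck1 it was 0.23 and for Sharpin 0.16, exceeded by 77% and 88.9%.

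By the same measure the genes most like Otulin were Xpnpep1 and Dpm2 (both 0.03), those most like Rbck1 were Dctn2 and Cdk4 (both 0.03), and those most like Sharpin were 3830406C13Rik (0.03) and 1810022K09Rik (0.04). The nearest to Tnip1 were Abhd8 (0.10) and Tor4a (0.11), and to Tnip2 Lrmp (0.08) and Zbed3 (0.09). Cyld was nearest to Cspp1 and Zfp644 (both 0.07), and Rnf31 to Cbl (0.12) and Adcy6 (0.13). Tnfaip3 had no close match, the nearest being Serpine2 and Unc13b at 0.38. For comparison, the median distance over all genes with a mean of at least 5 CPM was 0.30 to 1.42, lowest for Rbck1 and Sharpin and highest for Tnfaip3.

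Partners of the 8 proteins had positive KO coefficients, although none was called by edgeR. All 7 were positive, with a median log2 fold change of 0.56 against 0.13 over all genes, and 3 had an unadjusted p under 0.05. Over all 20610 genes 11387 were positive, and 3242 of these had an unadjusted p under 0.05. Tax1bp1, an adaptor that binds A20 to its targets, was at 404 and 322 CPM in KO against 230 to 483 in WT and HET (0.56 ± 0.21). Rnf11, a ligase of the same A20 complex, had 0.48 ± 0.18 (0.31 ± 0.28 without WT3 and HET3), and Otulinl, a catalytically inactive relative of Otulin, 0.82 ± 0.32. Tnip3, the gene of ABIN-3, was at 18.3 and 19.2 CPM in KO, 20 and 19.9 in WT1 and WT2, and 9.47 and 7.11 in HET1 and HET2. In WT3 and HET3 it was at 0.10 and 0.06 CPM, below their floors of 0.156 and 0.178. Without WT3 and HET3 the median of the 7 was 0.53, with 2 at an unadjusted p under 0.05. With no sex term it was 0.19, with 6 of 7 positive and 0 at an unadjusted p under 0.05.

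The other deubiquitinases had no shared direction. Of 15 listed, 14 passed the filter, with a median log2 fold change of -0.038 (0.01 without WT3 and HET3), and at an unadjusted p under 0.05 there were 2 higher and 2 lower. Usp21, which removes ubiquitin from RIPK1 and from histone H2A, was the one listed enzyme with both KO libraries above all 6 others. It was at 81.9 and 76.9 CPM in KO against 47.3 to 66.9 (log2 fold change 0.66 ± 0.17, adjusted p 0.148), with 0.69 ± 0.28 without WT3 and HET3 and 0.51 ± 0.18 with no sex term. Otud1 had 1.5 ± 0.56 (0.67 ± 0.55 without WT3 and HET3), Usp7, which stabilizes MDM2 and p53, -0.56 ± 0.20, and Usp15 -0.72 ± 0.24, and the KO libraries of these overlapped the others.

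Among the chain readers, the ubiquitin genes and the SCF ligase of IκBα, none was called by edgeR or by DESeq2 with apeglm. The 5 readers had a median of -0.0084 and the 5 SCF genes one of -0.032. Without WT3 and HET3 these were -0.12 and 0.063. Of the readers 1 had an unadjusted p under 0.05, Tab2, an adaptor of the kinase TAK1, with 0.85 ± 0.34, and 0.22 ± 0.31 without WT3 and HET3. The others named by rank were Tab3 (-0.68 ± 0.30), the autophagy receptor Sqstm1 (0.29 ± 0.18) and Optn (-0.57 ± 0.80). The 8 ubiquitin genes and conjugating enzymes had a median of -0.31 (-0.20 without WT3 and HET3), with 1 at an unadjusted p under 0.05, Ube2d3 at -0.48 ± 0.20. Rps27a, which encodes ubiquitin fused to a ribosomal protein, had -0.63 ± 0.34, and Ube2n, the enzyme that builds signaling chains with Ube2v1, -0.35 ± 0.18 (-0.18 ± 0.26 without WT3 and HET3). In the SCF ligase the scaffold Cul1 had -0.44 ± 0.19, and Btrc, the subunit that recognizes IκBα, 0.18 ± 0.20. Without WT3 and HET3 they had -0.25 ± 0.29 and 0.37 ± 0.26. Rbx1 and Skp1a had -0.15 ± 0.14 and -0.032 ± 0.15.

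Transcripts known as NF-κB feedback targets had a median log2 fold change of 2.14 in the model with sex, against 0.53 for the 8 genes. All 10 were positive, against 11387 of all 20610 genes. At an unadjusted p under 0.05 there were 7, against 15.7% of all genes higher in KO. None was called by edgeR and 5 were by DESeq2 with apeglm, which called 6.56% of all genes as higher in KO. Relb, a subunit of NF-κB dimers, had both KO libraries above the 6 others, at 18.2 and 14.7 CPM against 1.54 to 13.9 (2.65 ± 0.59, adjusted p 0.148). Nfkbie, which encodes the related inhibitor IκBε, was at 33.6 and 24.4 CPM in KO, 29.4 and 29.3 in WT1 and WT2, and 2.02 to 12.2 in the other 4 (2.41 ± 0.58). Traf1 and the adhesion molecule Icam1 had 3.20 ± 0.95 and 2.32 ± 0.74, with KO levels below those of WT1 and WT2. Without WT3 and HET3 the median of the 10 was 1.16, with 9 positive, against 0.14 over all genes. With no sex term it was 0.57, against 0.00089. The median of the 8 genes was 0.054 without WT3 and HET3, with 4 of 8 positive, and 0.32 with no sex term.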

How the data were processed

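The mouse bulk RNA-seq of sorted E14.5 fetal liver LT-HSCs was used, with genotype, sex, RNA label and replicate number from the sample labels. The authors deposited raw counts per Ensembl gene. Per the submitters' processing notes and the methods, reads were trimmed with Trim Galore 0.6.6 and aligned to GRCm38 with STAR 2.7.8, and uniquely mapped reads were counted. The strand column counted is not given in the sources used here, so reads of overlapping genes could not be told apart by strand. The authors also deposited log2 values, made by the variance-stabilizing transformation of DESeq2 1.38.3 and corrected for sex with limma. Each library held 500 cells amplified by PCR without molecular identifiers, so floors cover counting error only.

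Counts of genes with at least 10 reads over the 8 libraries were TMM-scaled and tested with edgeR 4.0.16 in R 4.3.3 (quasi-likelihood, legacy form), in a model of genotype and sex, with Benjamini-Hochberg adjustment over all 20610 genes. KO was compared with WT and HET pooled over 8 libraries, and HET with WT, and males with females, over 6. Fitted with sex, the KO value rests on WT3, HET2 and HET3 as references. Adjusted p-values without another tool named are from edgeR, and unadjusted ones too. DESeq2 1.42.0 with apeglm 1.24.0, other scalings and filters, a replicate block, single references, female libraries alone and leaving out each library were alternatives, and leaving out WT3 and HET3 together was added after seeing the data. log2 CPM used a prior count of 2. The edgeR and DESeq2 Wald tests of the KO comparison were tried on simulated counts that held no sex effect. The other comparisons and alternatives were not. Libraries of a group differed by 16.1 to 215.2 chi-square units per gene, so none was a repeat of another.

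Same-numbered WT and HET libraries deviated together from their group means (r = 0.29, 0.20 and 0.59 across genes, for the numbers 1, 2 and 3). By the rule that each same-numbered pair has r over 0.1, the numbers were used as a block in an alternative fit. The main fits did not include them. No label states a shared litter or day, and 2 differently numbered pairs had r above the lowest of these, WT2 with HET1 (r = 0.40, both male) and WT1 with HET2 (r = 0.23). WT3 had r = -0.45 with HET1 and -0.27 with HET2, and HET3 had -0.42 with WT1 and -0.49 with WT2. These correlations do not settle that the numbers mark pairs. WT3 and HET3 are the pair numbered 3.

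The members and gene lists were chosen with earlier results of these data known. From each list the text names the genes with both KO libraries outside the 6 others and the 4 with the lowest p. Of these, 1 gene is not reported here. Gene positions and exon lengths are those of GENCODE M21 (GRCm38), whereas the authors counted on Ensembl release 102.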

Additional observations from a re-analysis of the deposited data

How the results depend on the processing

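The KO comparison called 0 genes under edgeR, but 1855 with the DESeq2 Wald test, 1476 with apeglm, 1106 without the filter on low counts and 1 with the version 4 form of edgeR. It called 0 to 730 genes when 1 library was left out, with 730 without HET2 and 8 without HET1. HET against WT called 64 genes with DESeq2, 128 without the filter, 1964 with WT3 and HET3 left out, and 0 to 135 without 1 library, 135 being without HET2. Males against females called 3 genes, and 1839 with DESeq2, 5 with the version 4 form, 2121 without the filter, 0 at 10 reads in every sample, 46 with WT3 and HET3 left out, and 1 to 2998 without 1 library, with 2998 without HET2 and 1482 without HET1. Scaling by library size alone moved the median KO log2 fold change of all genes from 0.13 to 0.41.

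For KO against WT/HET, each of Tnip1, Tnip2, Cyld, Otulin, Rnf31 and Rbck1 kept its sign under every alternative, and Sharpin did but for library size alone (0.063). Some of these fits are no test of the sign. With the males fitted apart, Tnip1 stayed at 1.67 without WT1, without WT2 and without HET1. Female libraries alone repeat nearly the same comparison. Tnfaip3 turned to -0.46 with the replicate block and -0.61 with WT3 and HET3 left out, and was at 0.27 to 3.46 without 1 library. Only Tnip1 changed its call, with both DESeq2 fits (1.64 unshrunken), without the filter (1.67, adjusted p of 0.0171) and without HET2.

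For HET against WT no gene of the 8 was called with all 6 libraries, and signs turned often. Rnf31 (0.0066) was at -0.013 with DESeq2, -0.002 with the version 4 form, -0.012 with RLE, -0.10 with library size, -0.03 at 10 reads in every sample, -0.071 with no sex term and -0.18 with WT3 and HET3 left out. Cyld was at -0.0032 with library size, -0.13 with no sex term and -0.035 with WT3 and HET3 left out. Otulin and Sharpin were at -0.0086 and -0.066 with library size, and Tnfaip3 at -0.34 with no sex term and -1.98 with WT3 and HET3 left out, where it was called. Without 1 library the values spanned -1.98 to 3.93 for Tnfaip3, -0.94 to 0.51 for Tnip1, -0.45 to 0.31 for Tnip2, -0.035 to 0.23 for Cyld, -0.06 to 0.24 for Otulin, -0.18 to 0.31 for Rnf31 and -0.13 to 0.20 for Sharpin. For males against females, Sharpin turned to 0.022 with library size and 0.03 with WT3 and HET3 left out, Rnf31 to -0.14 and Tnfaip3 to -2.30 with these left out. Without 1 library, Rnf31 spanned -0.10 to 0.37 and Tnfaip3 -1.42 to 4.44. In that comparison Tnip1 and Tnip2 were called with DESeq2, without the filter and without HET2, and Tnip1 also without HET1. The causes were not tested.

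With the replicate number as a block, the KO comparison kept 0 calls, and 589 instead of 5196 genes had an unadjusted p under 0.05. HET against WT stayed at 0 calls and males against females had 0. The block turned Tnfaip3 to -0.54 and Tnip2 to 0.026 for HET against WT, and Tnfaip3 to -0.79 for males against females. KO2 deviated against its number (r = -0.35 with WT2 and -0.12 with HET2), whereas KO1 deviated with its own (r = 0.28 with WT1 and 0.24 with HET1). With 2 KO libraries, the r of KO1 and of KO2 with any library differ only in sign. They do not settle whether KO libraries share more than a number. Depth limited Tnfaip3 most, with 6 reads in WT3 and 13 in HET3. With 2 KO libraries, both female, the KO comparison rests on how sex is modelled.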
